A study of Mus musculus with 6 samples.

Results

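The genes described here are 42 genes of cell division, taken by name from the machinery that copies DNA, times the cell cycle and pulls chromosomes apart. Each was found on the array through the RefSeq accession of its non-control probes and was read by the brightest of these probes. All 42 were present, with 61 probes between them, among 22889 genes that could be named on the array. The livers came from male mice that were 12 weeks old when the diets began and whose strain was not given in the sources used here. Control mice (n = 3) ate regular chow for 4 weeks, and soy mice (n = 3) ate the same kind of chow with 25% soy bean over the same time. Both groups were fed freely, and no genotype was given for either. RNA of each liver went onto 1 single-colour Agilent mouse array, so that the number of arrays, 3 in each group, limits the precision of every value. Control 1, control 2 and soy 1 shared a slide, control 3 and soy 3 shared another, and soy 2 lay on a slide with no control array.

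Values are normalized signals on the log2 scale, where a difference of 1 is a doubling, and a change is the soy mean minus the control mean. A probe was called well above background where the scanner software marked its spot so. A gene passed where limma gave an adjusted p under 0.05 together with a fold change above 1.5 or under 0.66. The labelled tissue was borne out by its markers, since 8 of 8 hepatocyte genes were well above background on all 6 arrays, with albumin (Alb) the brightest of them. A piece of unsorted liver tissue was measured, so fewer cells of a kind and less RNA in each cell cannot be told apart.

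A cell that divides first builds cyclin D and cyclin E in G1, copies its DNA in S phase behind the MCM helicase, and then builds the cyclins, kinases and kinetochore proteins of mitosis. The kinetochore is the protein plate on the centromere to which spindle fibres attach, and the NDC80 complex, made of Ndc80, Nuf2, Spc24 and Spc25, is its grip on the microtubule. Most of these genes are switched on together in cycling cells and held off in resting ones by the E2F and DREAM complexes, which act at E2F and CHR elements close to the transcription start. Many of their promoters also hold CCAAT boxes, which are bound by the activator NF-Y. Adult hepatocytes rest in G0 and re-enter the cycle after injury or loss of tissue.

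Spc25 was up-regulated 2.90-fold in soy livers, and it was the one gene of the 42 that passed both thresholds (2.38%). Among all genes 0.459% passed in either direction and 0.288% passed as higher in soy. The remaining 41 genes lay closer together, with changes between -1.11 and 0.71. Their median was 0.27, beside -0.0056 for all genes. In sign 35 of the 42 genes (83.3%) were higher in soy, beside 48.8% of all genes. In 11 of the 42 (26.2%), Spc25 included, every soy array lay above every control array, beside 9.67% of all genes, and in 1 (2.38%), Ccne1, every soy array lay below, beside 10.8%. These 12 genes without overlap (28.6%, beside 20.5% of all genes) became 22 with arrays scaled to the 75th percentile (52.4%, beside 26.4%) and 21 without soy 1 (50%, beside 32.2%). Of the smaller differences none reached an adjusted p under 0.05 in limma, while 12 genes with Spc25 (28.6%) were higher and 2 (4.76%) lower at an unadjusted p under 0.05, beside 7.22% and 7.04% of all genes.

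**Figure D1:**
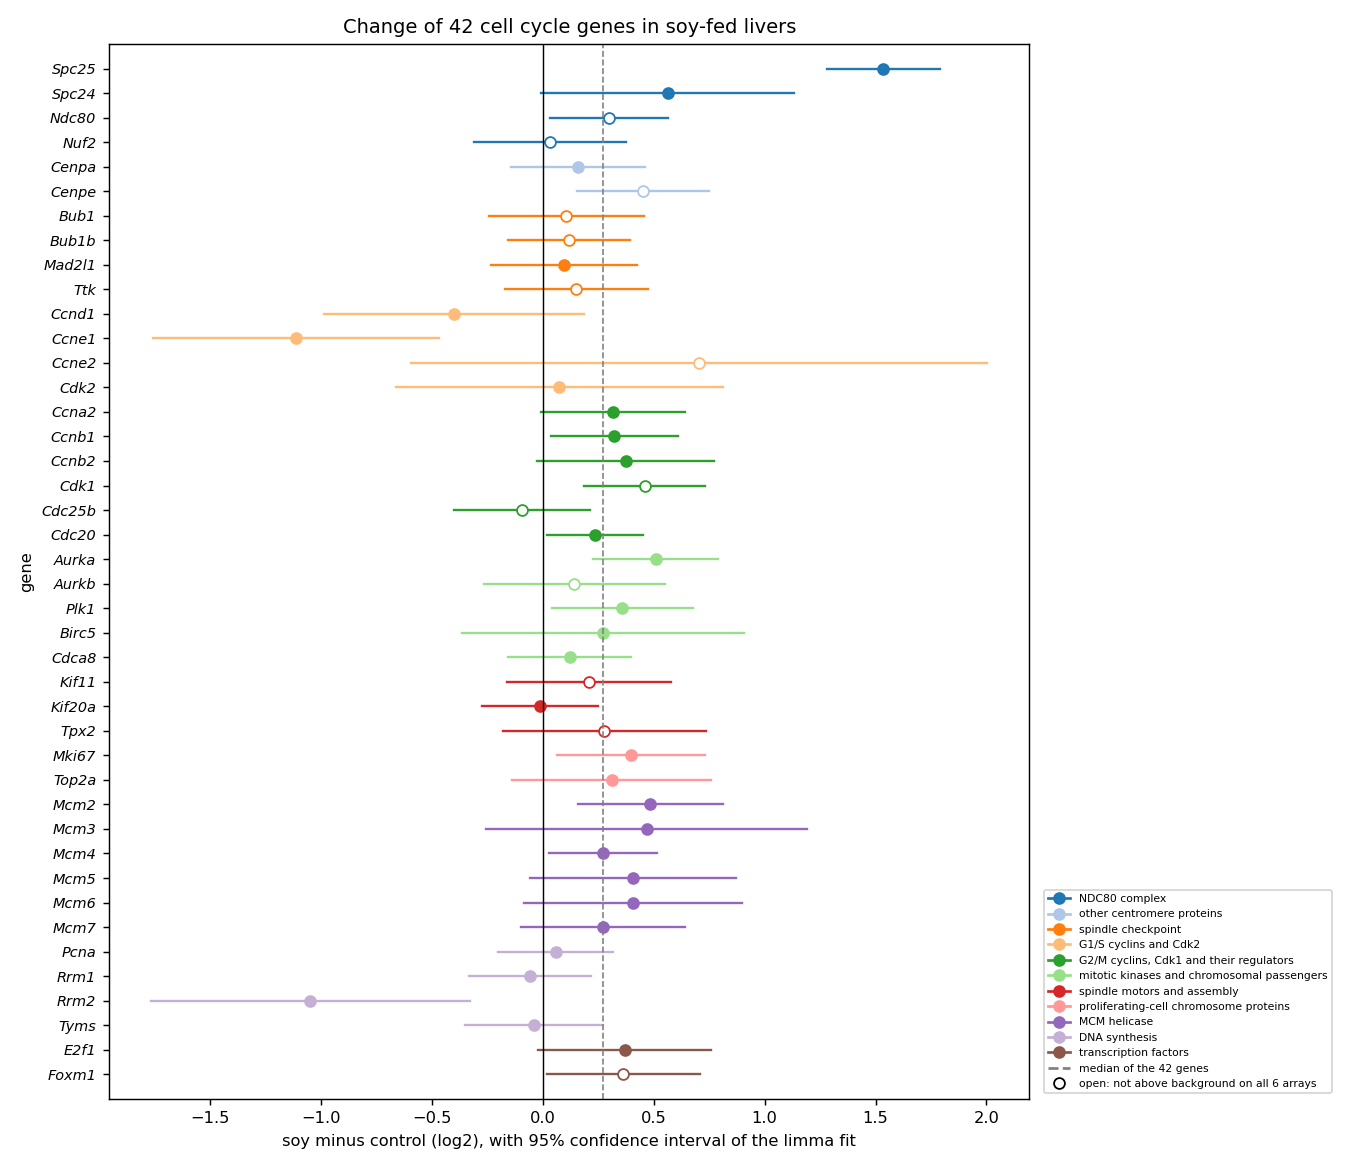
Soy minus control change (log2, horizontal axis) of each of the 42 genes with the 95% confidence interval of the limma fit, coloured by role; open circles mark genes not well above background on all 6 arrays. The interval of Spc25 (1.28 to 1.79) lies right of every other point, most other points lie near the list median of 0.27 (dashed line), and Ccne1 and Rrm2 lie furthest left.

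Detection set how much can be read from each gene. By the brightest probe, 29 of the 42 genes were well above background on all 6 arrays and 31 on every array of 1 group or both. By that probe 5 (Ndc80, Nuf2, Bub1, Bub1b and Ttk) were above it on none, though a dimmer Ttk probe was on 1 soy array. The 29 genes above background throughout had a median change of 0.27, with 23 higher and 6 lower in soy. The 13 others had a median signal difference of 0.21. Soy arrays had fewer spots well above background than control arrays, 31308, 31988 and 32498 of 59305 spots against 37010, 36366 and 38163 in control. The part of this gap in the changes of the dim genes was not tested.

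Spc25, which with Spc24 forms the end of the NDC80 complex that docks on the inner kinetochore, was read by a probe for NM_001305800. Its signal was 10.47, 10.55 and 10.54 in control and 12.09, 11.89 and 12.18 in soy. The 3 soy livers lay far above the 3 control livers and each group was tight. The change was 1.54 (SE 0.11, 95% interval 1.28 to 1.79, adjusted p = 0.00749 by limma with the Benjamini-Hochberg method). Within the slide of controls 1 and 2 the change was 1.59, and within the slide of control 3 it was 1.64. A dimmer probe for another Spc25 transcript, NM_025565, read 8.09, 7.94 and 8.28 in control and 9.36, 9.07 and 9.50 in soy. It passed as well, with a change of 1.21 (adjusted p = 0.0285), so that both probes placed all soy arrays above all control arrays.

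The other subunits of the complex did not pass. Spc24 (NM_026282), the direct partner of Spc25, read 10.61, 10.30 and 10.93 in control and 11.64, 11.14 and 10.75 in soy. The groups overlapped, soy 1 and soy 2 lying above all controls and soy 3 below control 3. The change was 0.56 (SE 0.24, 95% interval -0.0071 to 1.13, adjusted p = 0.441), and it was 1.19 within the first slide, -0.18 within the slide that held control 3 and soy 3, and 0.33 without soy 1. Ndc80 (NM_023294), which binds the microtubule, read 6.65, 6.60 and 6.61 in control and 7.10, 6.93 and 6.74 in soy, with no overlap. Nuf2 (NM_023284), its partner, read 6.50, 6.70 and 6.75 in control and 6.42, 6.72 and 6.91 in soy, with the groups interleaved. Neither Ndc80 nor Nuf2 was well above background on any array, so no fold change is given for either, and the adjusted p was 0.379 and 0.956. Spc24 was therefore the 1 partner with a measured level, and whether its change differed from that of Spc25 was not tested.

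**Figure D2:**
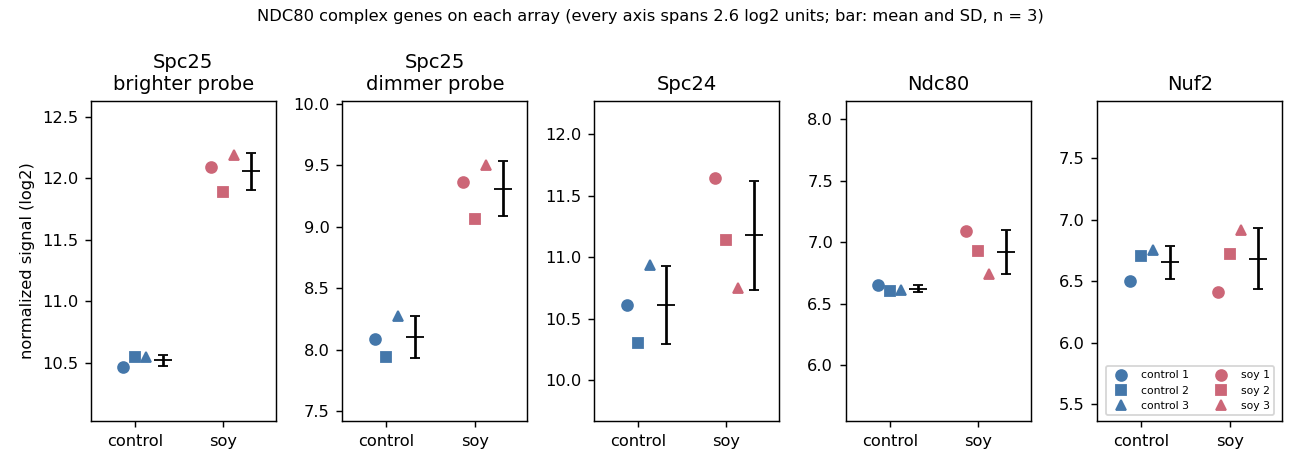
Normalized signal (log2, vertical axis) of the NDC80 complex genes on each array, with 1 point for each liver, a bar for the mean and SD (n = 3), and axes of equal span but different origin. Both Spc25 probes separate the groups, Spc24 overlaps, and Ndc80 and Nuf2 sit at signals that were not well above background.

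The start regions of some of these genes, though not of all, hold the letters of known cell cycle promoter elements. The bases below are RefSeq sequence of the mouse assembly GRCm38.p6, 150 bases before to 30 after each start, 5′ to 3′ on the gene's strand. The first 3 lines are subunits of the complex that had an entry in the RefSeq table, and Cdc20 and Ccnb2 stand for mitotic genes that carry both elements. Capitals mark the letters CCAAT and the letters TTTGAA or TTCGAA (a CHR element), searched on both strands. Neither of the E2F searches named below had a match in these 5 stretches.
Spc25, chr2:69206184-69206363, minus strand: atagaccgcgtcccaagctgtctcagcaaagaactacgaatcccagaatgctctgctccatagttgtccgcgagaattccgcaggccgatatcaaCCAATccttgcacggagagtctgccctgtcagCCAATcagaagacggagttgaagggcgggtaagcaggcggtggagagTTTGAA
Ndc80, chr17:71526828-71527007, minus strand: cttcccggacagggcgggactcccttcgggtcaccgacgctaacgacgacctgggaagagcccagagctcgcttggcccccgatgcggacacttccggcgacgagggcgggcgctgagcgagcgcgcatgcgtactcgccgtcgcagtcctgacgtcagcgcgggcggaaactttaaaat
Nuf2, chr1:169531435-169531614, minus strand: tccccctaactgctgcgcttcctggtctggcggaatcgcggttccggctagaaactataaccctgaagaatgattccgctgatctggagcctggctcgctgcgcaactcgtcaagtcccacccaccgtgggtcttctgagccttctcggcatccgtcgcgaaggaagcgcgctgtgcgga
Cdc20, chr4:118437314-118437493, minus strand: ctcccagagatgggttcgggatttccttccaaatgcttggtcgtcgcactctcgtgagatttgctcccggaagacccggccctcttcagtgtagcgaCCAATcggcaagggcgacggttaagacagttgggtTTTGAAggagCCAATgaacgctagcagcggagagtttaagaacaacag
Ccnb2, chr9:70421525-70421704, minus strand: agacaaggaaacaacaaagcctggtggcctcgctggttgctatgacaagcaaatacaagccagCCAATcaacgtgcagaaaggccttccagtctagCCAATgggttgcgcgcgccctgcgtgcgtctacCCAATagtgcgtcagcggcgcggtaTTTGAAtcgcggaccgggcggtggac
Spc25 held CCAAT at 55 and 23 bases before its start and TTTGAA from base 25 after it, whereas Nuf2 held none of these letters and Ndc80 held TTTGAA only on the opposite strand, at base 30 to 35, mostly beyond the stretch shown. In windows of 250 bases before to 50 after the start, which 33 of the 42 genes had in the table, CCAAT occurred in 26 (78.8%), beside 37.4% of all 32851 windows. A gene counted where any of its windows matched, whereas the share beside it counts single windows. TTTGAA or TTCGAA occurred in 18 of the 33 (54.5%, beside 19.2%), and both elements together in 17 (51.5%, beside 7.52%). The E2F letters TTTCGCGC or TTTGGCGC, again on either strand, occurred in 5 (15.2%, beside 0.813%), namely Cdk1 and the helicase genes Mcm3, Mcm5, Mcm6 and Mcm7. A match describes the letters and is not a measured binding site. The 17 genes with both elements included Spc25 but also Ttk, Cdc20, Plk1 and Mki67, which did not pass.

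Among the other centromere proteins, Cenpe, the motor that carries chromosomes to the spindle equator, read 7.03, 7.01 and 6.89 in control and 7.54, 7.56 and 7.18 in soy (NM_173762). All soy arrays lay above all controls, 3 control and 2 soy arrays were well above background, and the change of 0.45 did not pass (adjusted p = 0.228). Cenpa, the histone H3 variant that marks the centromere, differed by 0.16 (adjusted p = 0.690) with overlap. The spindle checkpoint genes hold back anaphase until every chromosome is attached. Of these, Mad2l1 was above background on all arrays and differed by 0.095 (adjusted p = 0.842). By their brightest probes the kinase genes Bub1, Bub1b and Ttk were above background on none, while a dimmer Ttk probe was on 1 soy array.

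The genes of G1 and S phase entry lay on both sides, with 2 of 4 lower in soy. Ccne1 (NM_007633), cyclin E1, read 11.10, 10.44 and 10.13 in control and 9.83, 9.05 and 9.45 in soy. Every soy liver lay below every control liver, with control 3 the lowest control and soy 1 the highest soy array. The change of -1.11 (SE 0.28, 95% interval -1.76 to -0.47) did not pass after adjustment (adjusted p = 0.176), and it was -0.94 and -0.68 within the shared slides. Ccnd1 (NM_007631), cyclin D1, the cyclin that answers growth factors, read 10.71, 11.47 and 10.92 in control and 11.08, 10.29 and 10.54 in soy. Its groups overlapped, and the change was -0.40 (adjusted p = 0.602). It was -0.18 without control 2, -0.23 without soy 2, -0.62 without soy 1 and -0.17 with the slide as a block. Cdk2, the kinase that cyclin E drives, differed by 0.075 (adjusted p = 0.950). Ccne2, cyclin E2, was well above background on a single array, soy 2, where it read 8.51 against 6.15 to 6.42 on the other 5. The soy mean was at least 1.58-fold higher than the control bound, on the strength of that array alone (adjusted p = 0.682).

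None of the 6 G2 and M phase regulators passed. In sign 5 of 6 were higher in soy and 4 of 6 without overlap, beside 48.8% and 9.67% of all genes. Cdk1 (NM_007659), the kinase that starts mitosis, read 6.77, 6.69 and 6.78 in control and 7.07, 7.14 and 7.41 in soy. Soy lay above control throughout, 2 arrays of each group were well above background, and the change was 0.46 (SE 0.12, adjusted p = 0.183). Ccnb1 (NM_172301), cyclin B1, its partner, read 7.40, 7.27 and 7.38 in control and 7.48, 7.87 and 7.66 in soy. These groups were separate by a small gap and differed by 0.32 (adjusted p = 0.377), while 2 dimmer Ccnb1 probes, above background on no array, did not separate the groups. With the 3 Ccnb1 probes averaged the change was 0.11, and with the slide as a block it was 0.21. Ccnb2 (0.37, adjusted p = 0.465) overlapped. Ccna2, cyclin A2 (0.32, adjusted p = 0.448), and Cdc20, the activator of the anaphase-promoting complex (0.24, adjusted p = 0.397), did not overlap by their brightest probes. A dimmer Cdc20 probe, above background on all arrays, did overlap (0.43, adjusted p = 0.462), as did a dimmer Ccna2 probe (0.24, adjusted p = 0.581). Cdc25b, a phosphatase that activates Cdk1, was above background on all control arrays and on no soy array. The bound put its soy mean 1.07-fold lower, but the groups overlapped. The 95% interval of the Cdc25b change ran from -0.40 to 0.21 (adjusted p = 0.832), and the change was 0.050 within the slide of control 3.

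Of the mitotic kinases and their passengers, Aurka (NM_011497), aurora kinase A of the spindle poles, read 8.18, 8.15 and 7.98 in control and 8.42, 8.70 and 8.72 in soy. It was above background on all arrays and separated the groups, with soy 1 the closest to control. Its change of 0.51 (SE 0.12) had the lowest adjusted p of the list after Spc25 (0.157). Plk1, polo-like kinase 1, differed by 0.36 (adjusted p = 0.374), and the chromosomal passengers Birc5 (survivin) and Cdca8 (borealin) by 0.27 (adjusted p = 0.754) and 0.12 (adjusted p = 0.749), all 3 with overlap. Aurkb, the kinase of the passenger complex, was above background on 1 array of each group and differed by 0.14 (adjusted p = 0.803). The spindle genes Kif11 (0.21, adjusted p = 0.667), Kif20a (-0.012, adjusted p = 0.979) and Tpx2 (0.28, adjusted p = 0.647) overlapped between the groups.

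The standard tissue markers of proliferation did not pass. Mki67 (NM_001081117), which encodes the Ki-67 antigen, read 8.04, 7.70 and 7.60 in control and 8.07, 8.12 and 8.35 in soy. The highest control lay just under the lowest soy array, and the change was 0.40 (adjusted p = 0.347), with 0.20 within the first slide and 0.74 within the slide of control 3. Top2a (NM_011623), the topoisomerase that untangles sister chromatids, read 7.53, 7.26 and 7.40 in control and 7.40, 7.58 and 8.14 in soy. Soy 3 was the highest by a margin, the groups overlapped and the change was 0.31 (adjusted p = 0.596), or 0.093 without soy 3.

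All 6 genes of the MCM helicase, which unwinds DNA at replication origins, were higher in soy, by 0.27 to 0.49, were well above background on every array, and did not pass. Mcm2 (NM_008564) read 7.50, 7.78 and 7.85 in control and 8.13, 8.05 and 8.41 in soy. It separated the groups with a change of 0.49 (adjusted p = 0.239). Mcm3 (NM_008563) read 8.52, 9.67 and 9.50 in control and 9.50, 9.48 and 10.10 in soy, with control 1 low and a change of 0.47 (adjusted p = 0.622), which was 0.11 without control 1 and 0.27 without soy 3. A dimmer Mcm3 probe, above background on every array, read 8.74, 9.14 and 8.97 in control and 9.31, 9.36 and 9.67 in soy. That probe separated the groups with a change of 0.50 (adjusted p = 0.247), while the dimmest Mcm3 probe overlapped (0.18, adjusted p = 0.623). Mcm4 separated the groups as well (0.27, adjusted p = 0.382), whereas Mcm5 (0.41, adjusted p = 0.493), Mcm6 (0.41, adjusted p = 0.522) and Mcm7 (0.27, adjusted p = 0.577) overlapped. The median of the 6 genes above their control mean was 0.14 on soy 1, 0.32 on soy 2 and 0.76 on soy 3, against -0.14, 0.079 and 0.14 on the control arrays, so soy 1 lay at the level of control 3.

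Of the enzymes of DNA synthesis 3 of 4 were lower in soy, and none passed. Pcna (NM_011045), the sliding clamp of the polymerases, read 12.13, 12.14 and 12.18 in control and 12.05, 12.20 and 12.38 in soy. Its groups overlapped at almost the same level, with a change of 0.058 whose 95% interval ran from -0.20 to 0.32 (adjusted p = 0.882). Rrm2 (NM_009104), the S phase subunit of ribonucleotide reductase, read 11.23, 10.73 and 10.18 in control and 9.55, 9.27 and 10.19 in soy. Control 3 and soy 3, which shared a slide, read alike. The change of -1.05 (SE 0.31, adjusted p = 0.251) was -1.44 within the first slide and 0.0090 within that of control 3. Rrm1, the large subunit (-0.0575, adjusted p = 0.892), and Tyms, thymidylate synthase (-0.039, adjusted p = 0.937), overlapped. The transcription factors of the programme, E2f1 for S phase and Foxm1 for mitosis, differed by 0.37 (adjusted p = 0.463) and 0.36 (adjusted p = 0.408), and Foxm1 was above background on 1 array of each group.

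Across arrays, the median of the 42 genes above their own control mean was 0.17 on soy 1, 0.22 on soy 2 and 0.30 on soy 3, against 0.016, 0.020 and -0.0060 on the controls. Of the 42 genes 28, 36 and 38 lay above their control mean on the soy arrays and 22, 23 and 20 on the control arrays. Since the control mean includes these controls, the control values are close to 0 by construction. Within the slide of controls 1 and 2 the median change was 0.14 with 25 of 42 genes higher, and within the slide of control 3 it was 0.29 with 32 of 42 higher, while Spc25 was about as far from control on either slide. Soy 3 counted most, since without it the median change of the list was 0.20 and 30 of 42 genes were higher. The 19 dimmer probes of 16 of these genes had a median change of 0.13, with 13 higher and 6 lower, and the Spc25 probe was the 1 that passed.

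**Figure D3:**
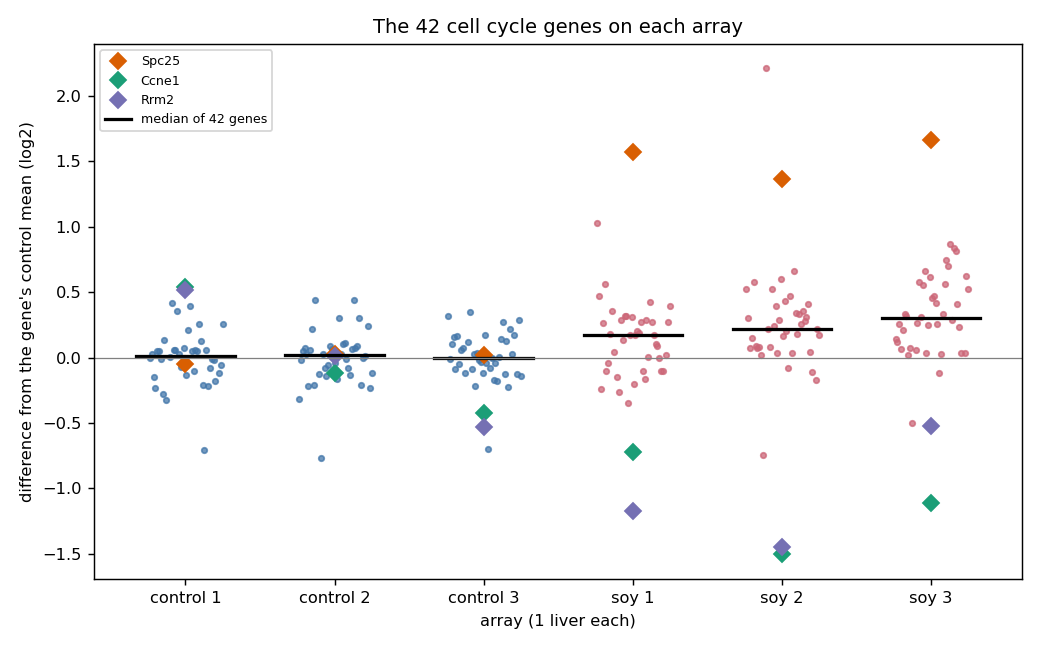
Difference of each of the 42 genes from its own control mean (log2, vertical axis) on each array (horizontal axis), with black bars for the median over genes and diamonds for Spc25, Ccne1 and Rrm2. The medians are 0.17, 0.22 and 0.30 on the soy arrays, Spc25 lies between 1.37 and 1.67 on each of them, and the unmarked point above 2 on soy 2 is Ccne2.

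To see how far this extended, 143 further cell cycle genes in 9 lists were read in the same way. Of these 1 passed as higher and 1 as lower, beside 0.288% and 0.170% of all genes. In sign 85 were higher and 58 lower, beside 48.8% of all genes higher, and the median change was 0.050. The gene that passed as higher was Rad51b (NM_009014), which helps repair broken DNA by homologous recombination. It read 6.80, 6.53 and 6.88 in control and 9.80, 11.16 and 10.86 in soy, a change of 3.87 (SE 0.32, adjusted p = 0.0101), with 2 control and all 3 soy arrays well above background. With all its probes averaged the change was 1.91 (adjusted p = 0.00613). Without soy 3 the change was 3.74 and Rad51b did not pass (adjusted p = 0.0501). No other recombination gene passed, although 10 of 13 were higher (beside 48.8% of all genes), 8 of 13 without overlap (beside 9.67%), among them Brca2 (0.64, adjusted p = 0.118) and Rad51d (0.42, adjusted p = 0.347). The gene that passed as lower was Egfr (NM_207655), a receptor through which growth factors drive hepatocytes into the cycle. It read 15.34, 15.76 and 15.26 in control and 14.22, 14.28 and 14.13 in soy, a change of -1.24 (SE 0.14, adjusted p = 0.0254) with no overlap. Egfr no longer passed with the slide as a block (-1.24, adjusted p = 0.136) or the replicate number as a block (adjusted p = 0.0519), while its change was -1.33 within the first slide and -1.13 within that of control 3. Of the remaining growth signals, Ccn2 differed by -1.29 (adjusted p = 0.306) and Myc, a transcription factor of growth, by 1.17 (adjusted p = 0.165), both without overlap.

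The lists nearest to Spc25 in function held no gene that passed. Of 21 other kinetochore genes 15 were higher, with a median of 0.11 and the largest changes in Cenpw (0.41, adjusted p = 0.265) and Incenp (0.40, adjusted p = 0.475). Of 27 other mitosis genes 18 were higher, with a median of 0.16. Among them Pttg1, securin, had a change of 0.97 (adjusted p = 0.609) that came from soy 1, at 12.93 against 10.45 and 10.32 on the other soy arrays and 10.22 to 10.30 in control. Ckap2, a spindle protein, differed by 0.63 (adjusted p = 0.281). The anaphase-promoting complex, whose 13 genes had a median of 0.021, reached 0.44 in Anapc4 (adjusted p = 0.266) and 0.33 in Cdc27 (adjusted p = 0.507). Origin licensing genes had a median of -0.15, with Mcm10 at -0.85 (adjusted p = 0.253) and Orc2 at -0.63 (adjusted p = 0.104), both lower on every soy array than on any control. The E2F and DREAM factors themselves had a median of -0.0061, with E2f2 at 0.80 (adjusted p = 0.301) and E2f8 at 0.53 (adjusted p = 0.855), both with overlap. The list of G1 control and CDK inhibitors had a median of 0.052, with Cdkn2b at 0.29 (adjusted p = 0.583) and Cdkn2c at 0.25 (adjusted p = 0.465). Of the p53 targets, which brake the cycle after damage, Btg2 was at -1.17 (adjusted p = 0.0545) and Gadd45a at 1.15 (adjusted p = 0.155), each without overlap, and the median was 0.15.

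**Figure D4:**
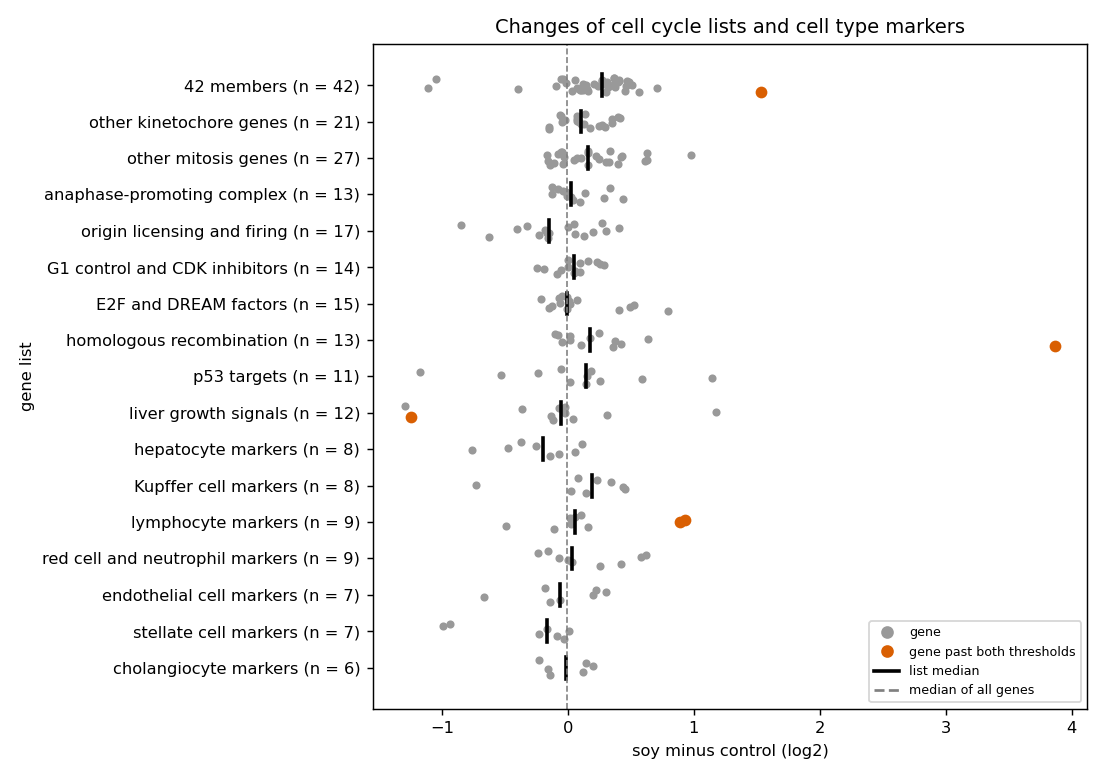
Soy minus control change (log2, horizontal axis) of every gene of the 42, of the further cell cycle lists and of the cell type marker lists, with a bar for each list median and orange points for genes that passed both thresholds. The orange points include Spc25, Rad51b, Egfr and Ms4a1, and the list medians lie between -0.20 and 0.27.

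Markers of the cells that a liver sample can hold were read beside the list. The summed hepatocyte marker signal was 20.54, 20.59 and 20.57 (log2) in control and 20.47, 20.34 and 20.39 in soy, with 0 of 8 genes passing and the largest changes in Tat (-0.76, adjusted p = 0.323) and Cps1 (-0.47, adjusted p = 0.176). Among the lymphocyte markers Ms4a1, a gene of B cells, rose by 0.93 (adjusted p = 0.0393). Ms4a1 read 7.60, 7.90 and 7.78 in soy, each above all control arrays, whose mean was 6.83 ± 0.16 (SD, n = 3). Ms4a1 did not pass with the slide as a block (0.85, adjusted p = 0.184) or the replicate number as a block (adjusted p = 0.0605), and its change was 0.76 and 0.97 within the shared slides. Another B cell marker, Cd79a, differed by 0.015 (adjusted p = 0.967). The T cell markers Cd4 (the brightest of the list) and Cd3e differed by -0.49 (adjusted p = 0.310) and -0.11 (adjusted p = 0.797). Cd8a and Ncr1 were above background on no array. In sign 7 of the 9 lymphocyte markers were higher and 2 lower in soy, beside 48.8% of all genes higher, and their median change was 0.058. The summed lymphocyte signal, in which the brightest gene weighs most, was 16.02, 16.04 and 16.28 in control and 15.91, 15.69 and 15.37 in soy. The part of these cells in the changes of the 42 genes was not tested.

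Of the Kupffer cell markers 8 of 8 were above background and 0 passed, with Cd5l, the brightest, at 0.45 (adjusted p = 0.539) and Marco at -0.73 (adjusted p = 0.589). Their median difference from the control mean varied between arrays in both groups, at -0.47, 0.041 and 0.39 in control and -0.028, 0.16 and 0.49 in soy, so that control 3 and soy 3 were the highest of their groups, as soy 3 was for the MCM genes. Red cell and neutrophil markers had a median change of 0.031, with Hba-a1 the brightest, Epb42 above background on no array, and S100a9 and S100a8 at 0.62 (adjusted p = 0.482) and 0.58 (adjusted p = 0.445). Their summed signal was 17.40, 16.97 and 17.50 in control and 17.12, 18.13 and 17.36 in soy, highest on soy 2. The endothelial list (median -0.062, brightest Clec4g) held Lyve1 at -0.66 (adjusted p = 0.655) and Kdr at 0.31 (adjusted p = 0.447). The stellate cell list (median -0.17, brightest Dcn) held Col1a1 at -0.99 (adjusted p = 0.317) and Col3a1 at -0.94 (adjusted p = 0.271). The cholangiocyte list (median -0.012, brightest Spp1, with Epcam above background on no array) held Cftr at -0.23 (adjusted p = 0.600) and Sox9 at -0.16 (adjusted p = 0.719). No gene of these lists passed.

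Whether Spc25 stood alone was also read under other processing. Spc25 passed under each of the 18 alternatives in which it was fitted, with a change of 1.37 to 1.62 and an adjusted p of 0.00177 to 0.0401. It was the single gene of the 42 to pass under all alternatives but 1, the background-subtracted signal of the scanner software, under which Cdk1 (1.35, adjusted p = 0.00190), Aurka (0.67, adjusted p = 0.0321) and Mcm2 (0.81, adjusted p = 0.0414) also passed as higher and Ccne1 (-1.29, adjusted p = 0.0419) as lower. Under that signal 13138 of all probes passed, beside 198 (0.350%) as reported, so that the background there was far larger.

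**Figure D5:**
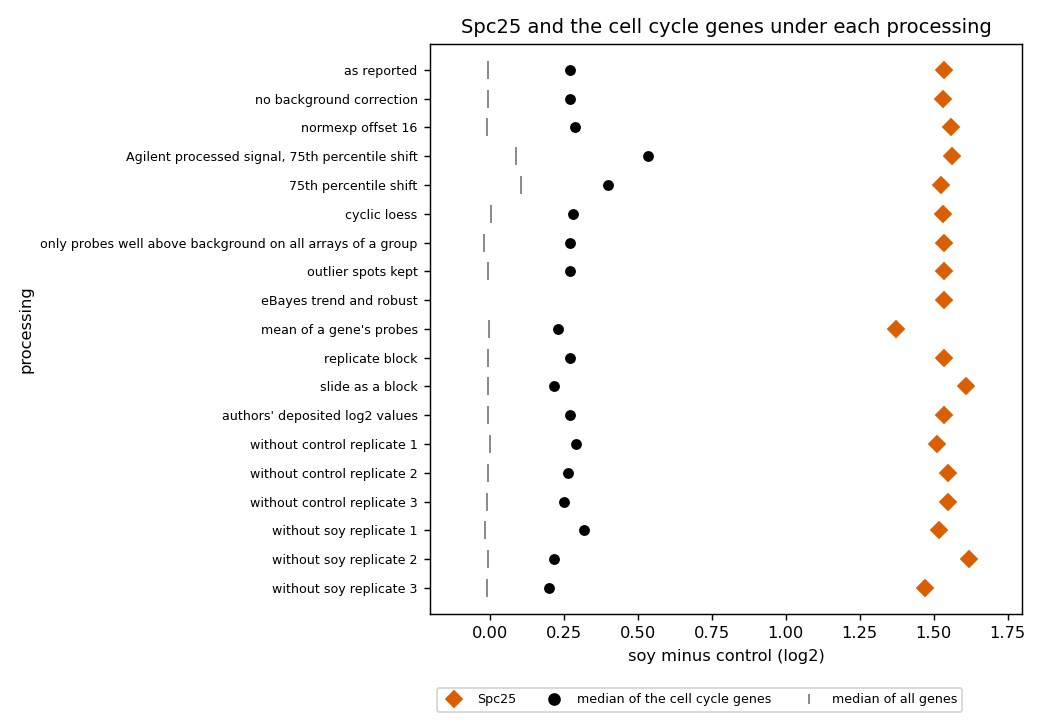
Change of Spc25 (diamonds), median change of the 42 genes (circles) and median of all genes (ticks), all soy minus control (log2, horizontal axis), under each processing (vertical axis), with no medians drawn where only the error model differed. Spc25 stays between 1.37 and 1.62, and the median of the list between 0.20 and 0.54.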

How the data were processed

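The authors deposited, per the file headers, output of Agilent Feature Extraction 11.5.1.1 for 6 single-colour arrays, which holds the median intensity of spots and of the background around them, an already background-subtracted intensity, and marks for spots above background and outliers. They also deposited log2 values of the same arrays, whose largest difference from the values used here was 0.056. The study's methods start from raw medians and use limma with Benjamini-Hochberg adjustment, naming neither a background correction nor a normalization.

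Median intensities were background corrected (normexp, offset 50, all spots), control spots and outliers were removed, and arrays were quantile normalized, log2 transformed and averaged by probe. All 56605 probes were tested with limma 3.58.1 (lmFit, eBayes) in R 4.3.3, adjusting p over all probes. Symbols came from RefSeq accessions (GRCm38.p6 table) for 32994 probes (58.3%). Python 3.11.15, pandas 2.3.3 and matplotlib 3.10.9 made the tables and plots, and the fit was tested on simulated data.

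No spot was saturated. Where a group was above background on no array, a fold is a bound, the brighter mean against the higher of the dim signal and the lowest signal above background on each array; none is given where both groups were.

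The members and lists were chosen with earlier results of these data known, the rise of Spc25 among them. Array values are given for the NDC80 complex genes, Mki67, Top2a, Cdk1, Ccnb1, Ccnd1, Pcna, genes that passed, and the 8 largest changes among genes above background on every array in either group. Of each other list the genes that passed and the 2 largest changes are named, and of marker lists the brightest gene; Cd79a, Cd8a, Ncr1, Epb42 and Epcam were named after their values were seen, and some members that the rule names are left out here. Replicates are separate mice. Alternatives were no background correction, offset 16, scaling to the 75th percentile, the background-subtracted signal scaled so, cyclic loess, outliers kept, only probes above background, a gene's probes averaged, robust eBayes with a trend, replicate number or slide as a block, the deposited log2 values, and each array left out. Small RNA sequencing and qRT-PCR were not used here.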

Additional observations from a re-analysis of the deposited data

How the results depend on the processing

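Spc25 passed under all 18 alternatives in which it was fitted, and the count of genes of the 42 that passed stayed at 1 under 18 of 19, leaving out any array included; it was 5 with the background-subtracted signal. That signal also gave a median change of the list of 0.54 (all genes 0.090) and 13138 probes that passed (11924 higher and 1214 lower, beside 118 and 80), and a 75th-percentile shift gave 0.40 (all genes 0.11) and 299 probes. The number of probes that passed was 77 with an offset of 16, 493 with only probes above background, of 32380, and 24 with the slide as a block; the cause was not tested. Leaving out arrays gave 23 to 199 probes, a Spc25 change of 1.47 to 1.62 and a list median of 0.20 to 0.32 (lowest without soy 3). The 2 further cell cycle genes became 1 with an offset of 16 or the slide as a block, 12 with the background-subtracted signal (9 higher and 3 lower), and 0 to 3 when arrays were left out (0 without soy 3, 1 without control 1, soy 1 or soy 2). Rad51b had a change of 1.91 with its probes averaged and 5.72 with the background-subtracted signal, and missed the threshold without soy 3 (adjusted p = 0.0501), Egfr under 7 of 18 alternatives and Ms4a1 under 9, both with the slide or the replicate number as a block, and Ms4a1 with each array left out in turn. The Nuf2 signal difference of 0.031 became -0.038 with the slide as a block and ran from -0.083 (without soy 3) to 0.17 when arrays were left out (-0.044 without control 1), and that of Pcna ran from -0.028 (without soy 3) to 0.14. The 12 genes of the 42 without overlap became 22 with the 75th-percentile shift (52.4%, beside 26.4% of all genes), 17 with the background-subtracted signal (40.5%, beside 39.1%) and 14 to 21 when arrays were left out, the highest without soy 1 (50%, beside 32.2%). Counts of list genes and of genes without overlap under the alternatives were chosen after seeing the data.

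Whether the replicate numbers pair the samples could not be decided with 3 arrays a group. Deviations from the group means of same-numbered arrays correlated at 0.12, -0.057 and 0.11, and those of differently numbered arrays at -0.20 to 0.10. The same-numbered arrays with 0.12 and 0.11 also shared a slide. With the replicate block Spc25 changed by 1.54 (adjusted p = 0.0400), 77 probes passed, and 1 of the further cell cycle genes did.

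No gene of the 42 with a change near their median passed with 3 arrays a group, which does not show that these genes did not differ, and genes not above background have no measured level. The gap between Spc25 and the mean of its 3 partners moved by 1.24 as reported and with the replicate block, by 0.84 with the background-subtracted signal and by 1.11 to 1.32 when arrays were left out, but it does not measure Spc25 against its complex, since Ndc80 and Nuf2 were above background on no array.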

Other observations

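The genes that flank Spc25 on mouse chromosome 2 in the RefSeq annotation did not pass, and each overlapped between the groups. Nostrin, which encodes a trafficking protein of nitric oxide synthase, differed by -0.22 (adjusted p = 0.753 by limma). G6pc2, a glucose-6-phosphatase subunit, differed by 0.015 (adjusted p = 0.981), and Abcb11, the bile salt export pump of hepatocytes, by -0.0024 (adjusted p = 0.998).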
